A study of Mus musculus with 6 samples.

Results

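ATAC-seq was used to compare the accessibility of chromatin around 35 mouse genes for protein tyrosine phosphatases and MAP kinase phosphatases in MLL-ENL–transformed cells with and without Cebpa and Cebpb. In this assay, more reads over a region mean that the transposase reached its DNA more often. A region was given to a gene where it overlapped the GENCODE M21 gene body on mm10, extended by 25 kb at each end. By this rule, 62 of the 10016 regions that the authors list as differing between the genotypes lay at 26 of the 35 genes. The share of all genes with such a region was not determined, here or for the further gene lists below. Counts of genes are therefore descriptions only, and the 35 genes were chosen partly from these differences. Of these 62 regions, 42 were more accessible in the cells without Cebpa and Cebpb and 20 less, or 67.7% higher, against 60.3% of all listed regions. On chromosome 10, 82% of all listed regions were higher, and the 4 phosphatase genes of that chromosome are therefore described apart. Outside it, 27 of 47 phosphatase regions were higher, which is 57.4% against 58.4% of all listed regions, so that the split by direction was close to that of the whole table.

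Protein tyrosine phosphatases (PTPs) remove phosphate groups from tyrosine and so oppose tyrosine kinases. Receptor PTPs span the cell membrane, whereas non-receptor PTPs act in the cytoplasm or nucleus and are often directed to their substrates by SH2, FERM or PEST domains. MAP kinase phosphatases, most of them named Dusp for dual specificity, switch off ERK, JNK and p38 by removing phosphate from both threonine and tyrosine of the activation loop. In myeloid cells, CD45 (Ptprc) and SHP-1 (Ptpn6) are the best-known phosphatases of cytokine and immune receptor signalling, and genes such as Dusp1, Dusp4, Dusp5 and Dusp6 are induced by the MAP kinase pathways that their products restrain.

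The series comprised 6 samples in 3 groups of 2. All were fetal liver cells transformed with the MLL-ENL fusion oncogene and kept in IL-3, sorted at 50000 cells per library. WT cells had the wild-type genotype by their label and, by the study's methods, came from mice with floxed Cebpa and Cebpb alleles, dKO cells were Cebpa KO and Cebpb KO and carried GFP, and dKO-LAP* cells, not analysed here, expressed rat C/EBPβ isoform LAP* as well as GFP. The labels name no vector for WT, and dKO lines grew out as clones after Cre treatment, so that vector, clone and genotype cannot be told apart. Nothing stated that the 2 replicates of a group were separate cultures. Regions at the deleted genes went with the labels: the listed Cebpa region had a log2 level of 9.99 in WT and -0.15 in dKO, at least 376-fold lower, and both listed Cebpb regions were lower in dKO, from 8.60 to 3.37 and from 7.38 to -0.15.

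Every level below is the authors' mean, the log2 of the average normalised read number over the libraries of a group, and a difference is dKO minus WT on that scale. The table holds 4 libraries only as group means, so no value per library, SD or replicate test can be given. All listed regions passed the authors' corrected P-value of 0.05. The phosphatase genes were chosen from these measured differences as well as by family, and their differences are therefore given as a description, with no test. The lowest listed level, -0.15, was taken as that of 1 read in each library, an estimate from the steps between low levels. On this basis, 3 reads per library, a log2 level of 1.43, were used as a floor. Intervals (95%) cover counting error only.

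The DNA of 8 regions is shown for the central 200 bases, on the plus strand of mm10. Of these, 6 were picked as the most different regions with a given motif match, so that the matches discussed with each gene can be seen, and 2 for lying near a gene start. In lower case with matches in capitals, the 3 regions with the largest falls among those with a C/EBP match (TTGCNNAA or TTACNNAA, on either strand) were in introns of Ptpn14 and Ptprf.
Ptpn14, chr1:189864463-189864662: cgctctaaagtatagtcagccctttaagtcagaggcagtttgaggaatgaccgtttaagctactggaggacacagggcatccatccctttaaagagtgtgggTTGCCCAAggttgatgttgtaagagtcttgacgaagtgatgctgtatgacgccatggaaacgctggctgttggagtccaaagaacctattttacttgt
Ptpn14, chr1:189808122-189808321: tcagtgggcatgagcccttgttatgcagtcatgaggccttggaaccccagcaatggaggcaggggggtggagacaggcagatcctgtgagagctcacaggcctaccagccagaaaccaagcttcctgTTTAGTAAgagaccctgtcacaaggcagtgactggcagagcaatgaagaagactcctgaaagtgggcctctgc
Ptprf, chr4:118273900-118274099: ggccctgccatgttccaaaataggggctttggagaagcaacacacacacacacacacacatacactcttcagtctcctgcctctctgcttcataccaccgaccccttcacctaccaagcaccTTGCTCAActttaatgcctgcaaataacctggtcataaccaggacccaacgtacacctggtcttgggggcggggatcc

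The 3 regions with the largest rises among those with an AP-1 match (TGAGTCA, on either strand) were in introns of Ptprr and Ptprg. The Ptprg sequence also holds C/EBP and RUNX (AACCACA) matches, in capitals as well, of which the first of each overlap.
Ptprr, chr10:116175538-116175737: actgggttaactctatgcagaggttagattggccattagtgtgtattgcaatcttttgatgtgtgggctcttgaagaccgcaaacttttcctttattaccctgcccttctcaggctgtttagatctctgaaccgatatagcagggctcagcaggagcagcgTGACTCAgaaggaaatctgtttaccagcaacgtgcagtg
Ptprr, chr10:116192396-116192595: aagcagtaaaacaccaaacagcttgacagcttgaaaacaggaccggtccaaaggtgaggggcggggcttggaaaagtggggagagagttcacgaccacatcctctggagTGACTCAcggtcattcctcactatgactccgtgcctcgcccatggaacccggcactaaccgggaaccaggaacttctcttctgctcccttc
Ptprg, chr14:11811433-11811632: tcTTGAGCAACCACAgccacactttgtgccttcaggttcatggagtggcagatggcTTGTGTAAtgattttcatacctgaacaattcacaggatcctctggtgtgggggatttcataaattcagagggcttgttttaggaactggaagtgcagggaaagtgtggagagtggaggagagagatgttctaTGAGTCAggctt

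At gene starts, the largest fall was at the Ptpn13 promoter, where none of the 4 motifs searched was found in these bases. The largest rise within 1 kb of a start site was at Ptpn18, where the capitals mark a match to the PU.1 motif GAGGAAGT.
Ptpn13, chr5:103425023-103425222: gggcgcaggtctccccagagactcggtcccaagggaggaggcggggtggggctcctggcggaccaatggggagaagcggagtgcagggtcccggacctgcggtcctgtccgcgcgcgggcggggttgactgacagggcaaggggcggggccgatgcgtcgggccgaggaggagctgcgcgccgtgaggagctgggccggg
Ptpn18, chr1:34460210-34460409: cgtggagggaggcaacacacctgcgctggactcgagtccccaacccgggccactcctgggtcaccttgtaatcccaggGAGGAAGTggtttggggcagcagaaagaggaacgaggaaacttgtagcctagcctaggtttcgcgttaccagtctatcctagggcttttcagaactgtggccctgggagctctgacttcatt

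**Figure D1:**
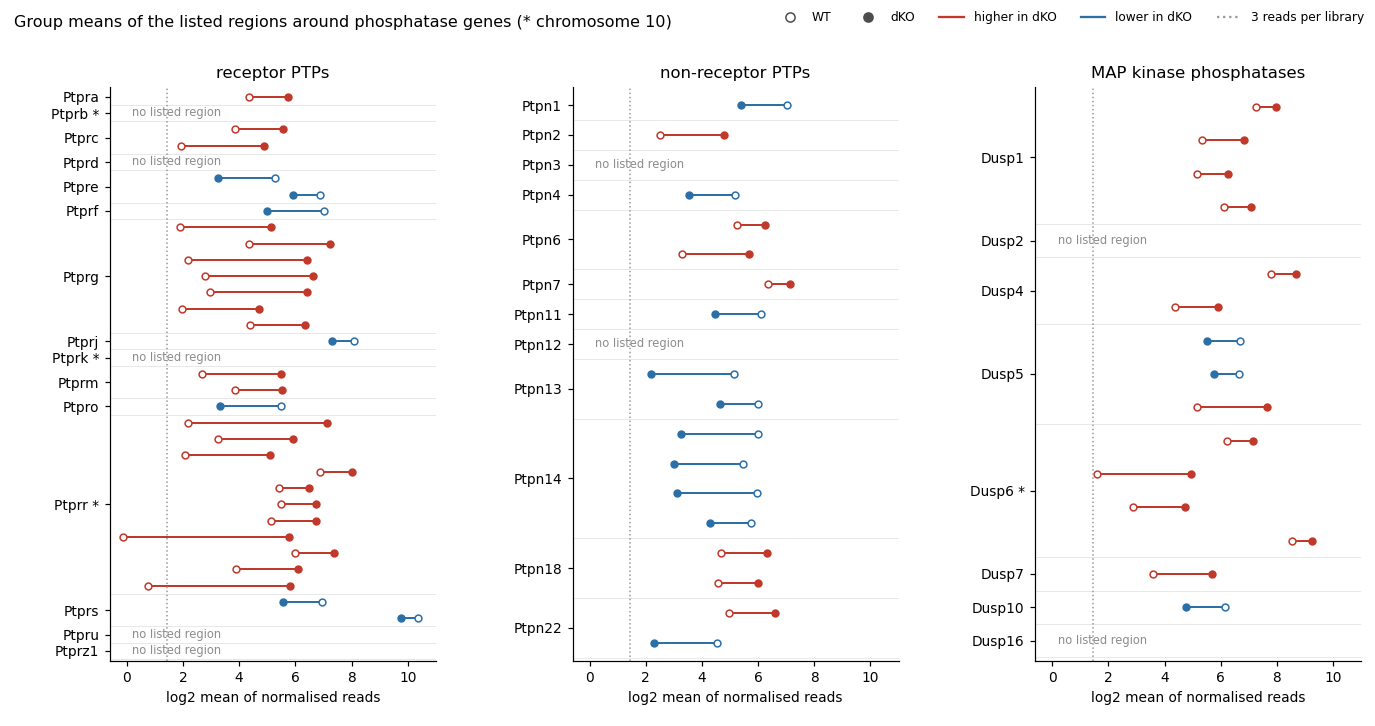
Log2 mean of normalised reads (horizontal axis) in WT (open points) and dKO (filled points) for each of the 62 listed regions, 1 line per region, by gene and class. Red lines mark regions higher and blue lines regions lower in dKO, an asterisk marks genes on chromosome 10, and the dotted line is the floor of 3 reads per library. Within most genes all lines have the same colour, and Ptprg and Ptprr hold the longest red lines.

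Most genes had regions of only 1 direction. Of the 26 genes with a listed region, 13 had only regions higher in dKO, 11 had only regions lower and 2, Ptpn22 and Dusp5, had both. Of the 15 genes with more than 1 region, 13 were uniform. In the further lists, genes with both directions were 1 of 14 for other phosphatases and 1 of 19 for MAP kinases and their upstream kinases. They were 0 of 10 for cytoplasmic tyrosine kinases and 0 of 13 for inhibitory receptors and adaptors. These counts include genes with a single region, which cannot hold both directions, so they cannot be set against the 13 of 15. Counted by pairs of neighbouring regions in a window, 34 of 36 pairs had the same direction, and outside chromosome 10 this held for 21 of 23. Over the whole table, 74.5% of the 7189 pairs of listed neighbours up to 200 kb apart had the same direction, and 97.3% of those within 2 kb. The phosphatase pairs share a gene and, in 7 cases, lie within 2 kb of each other, so they are not independent.

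By class, the regions divided as follows. Receptor PTPs had 23 of 30 regions higher in dKO (12 of 19 outside chromosome 10), non-receptor PTPs 7 of 17, and MAP kinase phosphatases 12 of 15 (8 of 11 outside chromosome 10), against 60.3% of all listed regions (58.4% outside chromosome 10). A difference between the classes was not tested, and receptor PTPs outside chromosome 10, with 63.2% higher, were near the share of all listed regions. The median difference was 1.70 for receptor PTPs outside chromosome 10, -1.48 for non-receptor PTPs and 0.95 for MAP kinase phosphatases outside it, against 0.95 for all listed regions outside chromosome 10. By genes, 5 receptor PTPs had only higher and 5 only lower regions, and the surplus of higher regions in this class came from Ptprg and Ptprr. Without Ptprg, which alone held 7 regions, the members outside chromosome 10 divided into 20 higher and 20 lower regions. A 2-fold or larger difference was found in 52 of the 62 regions, or 83.9%, against 85.5% of all listed regions.

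Ptprg, which encodes the receptor-type phosphatase PTPγ with a carbonic anhydrase-like extracellular domain, held the most listed regions outside chromosome 10. All 7 of its regions were intronic and higher in dKO, by 1.97 to 4.26, and spanned the gene from 156 to 560 kb behind its 5′ end. The region with the largest difference, chr14:11775116-11775946, had a level of 2.17 in WT and 6.43 in dKO, a 19.2-fold difference with an interval of 3.35 to 5.34 on the log2 scale. In the next intronic region, chr14:11811209-11811856, whose sequence is printed above, the level was 2.79 in WT and 6.61 in dKO. WT levels at the gene ran from 1.89 to 4.37 and dKO levels from 4.71 to 7.22, so the highest WT level was below the lowest dKO level. No listed region lay within 1 kb of a Ptprg start site, the nearest being 22186 bp away.

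CD45 (Ptprc), the abundant phosphatase of white blood cells that activates Src-family kinases, had 2 listed regions, both higher in dKO. At chr1:138180163-138180431, 4455 bp upstream of its nearest start site, the level was 1.93 in WT and 4.87 in dKO, 7.67-fold higher. The other, 23399 bp beyond the 3′ end, had 3.86 in WT and 5.55 in dKO. Both held an AP-1 and a PU.1 match in their central 200 bp.

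Among the remaining receptor PTPs with higher regions, Ptpra (PTPα, a further activator of Src kinases) had an intronic region at 4.35 in WT and 5.72 in dKO. Ptprm (PTPμ, a homophilic adhesion receptor) had 2 intronic regions 37 bp apart, at 2.66 in WT and 5.49 in dKO and at 3.84 and 5.54.

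The 5 receptor PTPs with lower regions had 7 in all. Ptpro, a receptor PTP of podocytes and macrophages, had an intronic region at 5.50 in WT and 3.31 in dKO, 4.56-fold lower. Ptprf, which encodes the adhesion-type phosphatase LAR, had a single intronic region at 7.03 in WT and 4.98 in dKO, 4.14-fold lower and with the C/EBP match shown above. Ptpre (PTPε, close to PTPα) was lower at 2 introns, from 5.27 to 3.25 and from 6.86 to 5.92, the latter with 3 C/EBP matches. Ptprj (CD148) was lower in an intron, from 8.07 to 7.31. Ptprs, a relative of LAR, was lower at its promoter, chr17:56461762-56462853, from 10.37 to 9.76. This was the most accessible of all 62 regions in both groups and its difference, a 1.53-fold fall, was the smallest. A second Ptprs region near the 3′ end, at the start of a retained-intron transcript and within coding sequence, had 6.96 in WT and 5.55 in dKO.

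In the non-receptor class, Ptpn14 and Ptpn13 had the largest falls. Ptpn14 encodes a FERM-domain phosphatase that binds the Hippo pathway effector YAP. All 4 of its regions lay in introns, 80 to 140 kb behind the 5′ end of the 148 kb gene, and were lower in dKO. At chr1:189864414-189864711 the level was 5.96 in WT and 3.11 in dKO, 7.21-fold lower (log2 interval -3.64 to -2.16). In the remaining 3 regions the WT levels were 6.01, 5.46 and 5.76 and the dKO levels 3.25, 3.02 and 4.28, in order along the gene. The 4 WT levels thus lay between 5.46 and 6.01 and every dKO level was below them. A C/EBP match was present in 3 of the 4. The second, 957 bp upstream of a start site of a retained-intron transcript and 56903 bp from the nearest coding transcript start, had none.

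Ptpn13, the gene of a large FERM- and PDZ-domain phosphatase, was lower at its promoter, chr5:103424936-103425310, with a level of 5.14 in WT and 2.18 in dKO. This 7.78-fold difference, on about 78 and 10 reads, was the largest fall among the 62 regions. A second region 15996 bp behind the gene, nearer to the start of Slc10a6, had 6.01 in WT and 4.63 in dKO.

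Genes for the best-studied cytoplasmic PTPs differed in direction. Ptpn6, which encodes SHP-1, the SH2-domain phosphatase that dampens cytokine and immune receptor signals, had 2 regions within 463 bp of each other and near internal start sites. They were higher in dKO, from 5.25 to 6.25 and from 3.28 to 5.68, the second of them 5.28-fold and with an AP-1 match. Ptpn11, which encodes SHP-2, the SH2-domain phosphatase that promotes Ras and ERK signalling, had a region with a C/EBP match 18436 bp behind the gene at 6.12 in WT and 4.47 in dKO, 3.14-fold lower. Ptpn1 (PTP1B), which acts on insulin and cytokine receptors, was lower 21577 bp upstream, from 7.04 to 5.40. Ptpn2 (TC-PTP), its closest relative and a phosphatase of JAK kinases, was higher 9797 bp upstream, from 2.51 to 4.78.

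Ptpn18 and Ptpn22 belong to the PEST-type group, of which Ptpn12 had no listed region. Ptpn18 was higher at 2 regions, 370 bp from a start site (4.69 in WT and 6.30 in dKO, 3.05-fold) and 4182 bp further into the gene (4.56 and 5.99). Ptpn22, which restrains antigen receptor signalling, had a region upstream at 4.95 in WT and 6.61 in dKO and another downstream at 4.53 and 2.31. Both were nearer to a start site of another gene, Bcl2l15 and Rsbn1, than to that of Ptpn22. Ptpn4, a FERM-domain phosphatase, was lower in an intron with a C/EBP match, from 5.17 to 3.55. Ptpn7 (HePTP), a blood-cell phosphatase that binds ERK and p38, was higher 1322 bp upstream of its start, from 6.36 to 7.13.

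Of the MAP kinase phosphatases outside chromosome 10, Dusp1, Dusp4 and Dusp7 had only higher regions in the 25 kb windows. With windows of 50 kb, the most different region was a lower one at Dusp1 (-3.53) and Dusp7 (-3.72). Dusp1, the immediate-early phosphatase of p38 and JNK, had 4 regions, with WT levels of 7.25, 5.32, 5.17 and 6.11 and dKO levels of 7.95, 6.81, 6.25 and 7.06. The differences were small, from 0.70 to 1.49, and 2 regions held a PU.1 match. The annotated Dusp1 body runs to 56.5 kb because of a long transcript upstream of the usual start, and 3 of the 4 regions lay inside that body. Dusp4, a nuclear phosphatase of ERK, was higher at its promoter, chr8:34806824-34808077, with 7.78 in WT and 8.67 in dKO, a 1.85-fold difference. Its second region, 7873 bp behind its start and with an AP-1 match, had 4.37 in WT and 5.91 in dKO. Dusp7, a cytoplasmic phosphatase of ERK, was higher 7090 bp upstream of its start, from 3.59 to 5.68, in a region with an AP-1 match.

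Dusp5 and Dusp10 had lower regions. Dusp5, a nuclear ERK phosphatase, had 2 regions inside the gene with C/EBP matches, which were lower in dKO, from 6.68 to 5.52 and from 6.64 to 5.75. The third region, 23387 bp behind the gene and with an AP-1 match, was higher, from 5.16 to 7.63. It was just inside the window, and Nutf2-ps1 had the nearest start site. Dusp10, a phosphatase of JNK and p38, was lower in an intron, from 6.14 to 4.76. No listed region lay at Dusp2 or Dusp16.

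On chromosome 10, 2 of the 4 phosphatase genes had listed regions, and all 15 were higher in dKO, against 82% of the 767 listed regions of this chromosome. The part of this chromosome-wide difference in the values of both genes was not tested. Their median difference was 1.86, against 1.25 for all listed regions on chromosome 10. Ptprr encodes a receptor-type phosphatase that binds ERK through a kinase interaction motif, as Ptpn7 does. Its 11 regions lay between 79 and 174 kb behind the 5′ end of the 257 kb gene, and no other phosphatase gene had as many.

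The WT levels of the Ptprr regions ran from the lowest listed value to 6.88 and the dKO levels from 5.10 to 8.03. In the most accessible, chr10:116121392-116121950, the level was 6.88 in WT and 8.03 in dKO, a 2.22-fold difference. At the other extreme, chr10:116175435-116175841 was at the lowest listed level of -0.15 in WT and at 5.79 in dKO, at least 20.5-fold higher. The region at chr10:116192342-116192649 had 0.77 in WT, also under the floor, and 5.81 in dKO, at least 20.8-fold higher. A further region at chr10:116096525-116096970 had 2.17 in WT and 7.14 in dKO, 31.3-fold higher. The remaining 7 regions had differences of 1.06 to 3.03. Both regions under the floor in WT held an AP-1 match, as printed above. Of the 11 regions, 4 lay nearer to the start site of 4933416C03Rik, a coding gene inside Ptprr.

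Dusp6, the cytoplasmic phosphatase of ERK that is itself an ERK target gene, had 4 listed regions. Its promoter, chr10:99262884-99263458, had 8.52 in WT and 9.24 in dKO, 1.65-fold higher. Upstream, 3 regions had WT levels of 6.21, 1.59 and 2.87 and dKO levels of 7.13, 4.94 and 4.73. The gain was larger at the pair 15815 and 15127 bp upstream of the start, 10.2-fold and 3.63-fold, than at the promoter. On about 7 WT reads, the first of the pair had an interval of 2.16 to 4.65. No listed region lay at Ptprb, which lies directly beside Ptprr, or at Ptprk.

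**Figure D2:**
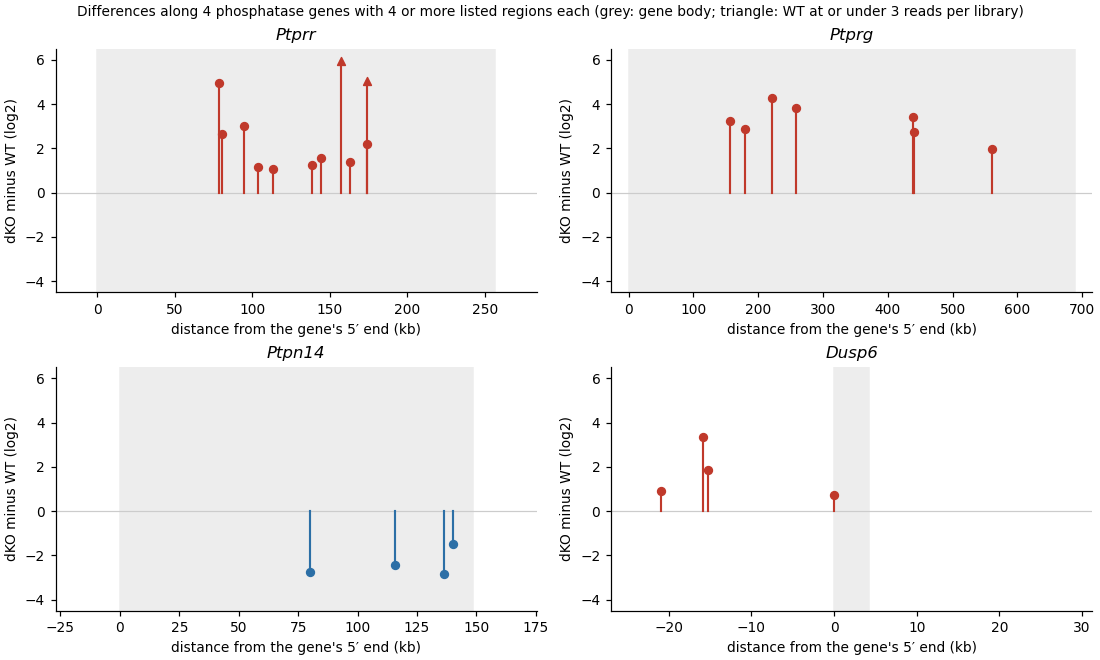
Difference of the log2 group means (vertical axis, dKO minus WT) against the distance of each region from the 5′ end of its gene (kb, horizontal axis) for Ptprr, Ptprg, Ptpn14 and Dusp6. Grey marks the gene body and triangles mark regions at or under 3 reads per library in WT. Every region of Ptprr, Ptprg and Dusp6 is above 0 and every region of Ptpn14 below 0, and only at Dusp6 does a region lie at the 5′ end.

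The listed regions were mostly away from promoters. Introns held 38 of the 62, and 47 lay inside the gene body. Within 1 kb of an annotated start site of their gene lay 7 regions, and 5 of these were that close to the start of a coding transcript, at Ptprs, Ptpn13, Ptpn18, Dusp4 and Dusp6. Of these 5, the regions of Ptpn18, Dusp4 and Dusp6 were higher and those of Ptprs and Ptpn13 lower. Counting the start sites of all genes, 17.7% of the phosphatase regions were within 1 kb of one, against 19.1% of all listed regions. For 53 of the 62 regions, the phosphatase gene itself had the nearest start site of any coding gene. The 62 regions fell in 8.60 Mb of windows, or 7.21 per Mb, against 3.80 per Mb over the chromosomes, of which gene-poor stretches are a part. Because the genes were chosen partly from these differences, a higher density in their windows can follow from the choice. Windows of other genes were not counted, and an enrichment was not tested.

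Since WT levels enter the difference that sets the direction, higher and lower regions differ in them by construction, and their levels are given only beside those of the whole table. The median WT level was 4.35 for the 42 higher regions and 6.07 for the 20 lower ones, against 4.52 and 5.93 over all listed regions. In dKO the medians were 6.28 and 4.55, against 6.23 and 3.98. Of the 42 higher regions, 14 had a WT level of 3 or less, against 19.7% of all listed higher regions, and 9 of the 14 were at Ptprg or Ptprr. Of the 20 lower regions, 2 had a dKO level of 3 or less, at Ptpn13 and Ptpn22, against 27.4% of all listed lower regions.

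**Figure D3:**
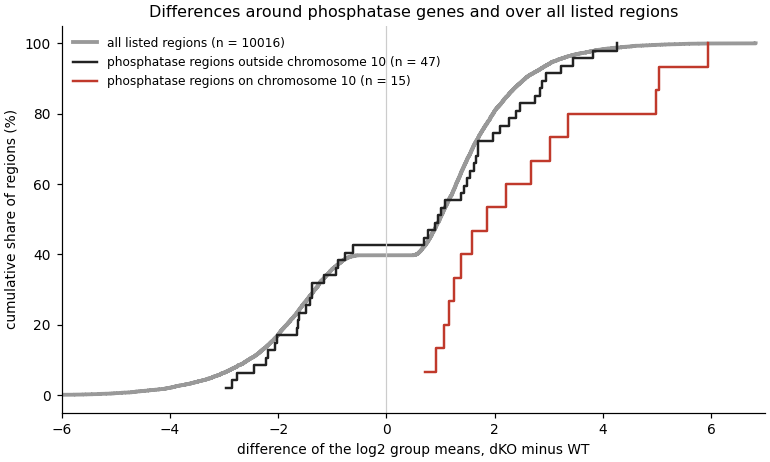
Cumulative share of regions (%, vertical axis) against the difference of the log2 group means (dKO minus WT, horizontal axis) for all 10016 listed regions (grey), the 47 phosphatase regions outside chromosome 10 (black) and the 15 on chromosome 10 (red). The black line runs along the grey line, with 57.4% of its regions above 0 against 60.3% of all listed regions, and the red line lies wholly above 0.

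Motif matches were counted in the central 200 bp of each region. A C/EBP match, the site of the deleted factors, was found in 9 of 20 lower phosphatase regions (45.0%, Wilson interval 25.8 to 65.8%) and in 7 of 42 higher ones (16.7%, 8.32 to 30.6%). Over all listed regions the shares were 40.8% of lower and 20.1% of higher regions. When whole regions were searched, 33.3% of higher and 55.0% of lower phosphatase regions had a match, against 35.3% and 54.3% of all listed regions. In the central 400 bp these shares were 31.0% and 55.0%, against 30.8% and 51.8%. The lower regions with a match were at Ptpn14 (3), Dusp5 (2), Ptpn11, Ptpn4, Ptpre and Ptprf. In the higher group, 4 of the 7 were at Ptprg, 2 at Ptprr and 1 at Dusp6. An AP-1 match, the site of Fos and Jun dimers, was found in 12 of 42 higher regions (28.6%, 17.2 to 43.6%) and in 1 of 20 lower ones (5.00%), at Ptpn14, where the table as a whole had 26.6% and 4.65%. The PU.1 motif matched 10 of 42 higher and 0 of 20 lower regions, which allows a share of up to 16.1% by the Wilson interval, against 13.1% and 3.37% of all listed regions. The RUNX motif matched 8 of 42 higher and 1 of 20 lower regions, against 13.8% and 9.02%. The interval of the PU.1 share in higher regions (23.8%, 13.5 to 38.5%) lay just above the share of the whole table, but outside chromosome 10 (6 of 27, 22.2%, 10.6 to 40.8%) it included it. The intervals of C/EBP, AP-1 and RUNX and that of PU.1 in lower regions included the share of the whole table. A match is a description of the letters only, and several regions share a gene.

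**Figure D4:**
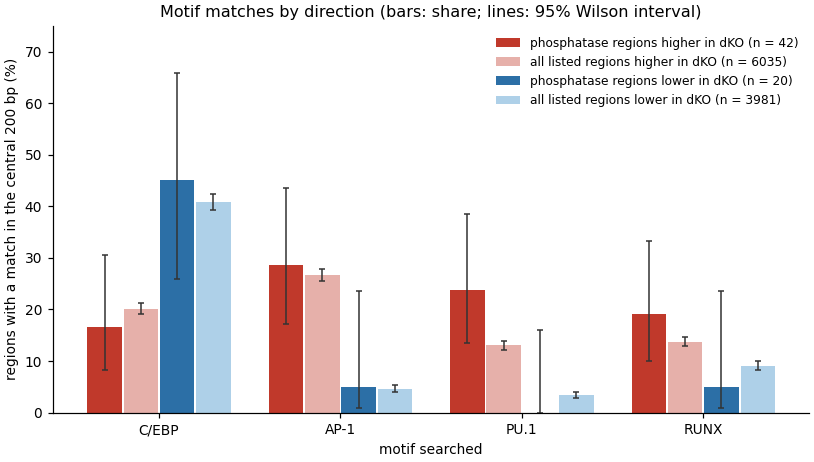
Share of regions (%, vertical axis) with a match to each of 4 motifs (horizontal axis) in the central 200 bp, for phosphatase regions (dark bars) and all listed regions (pale bars), higher (red) or lower (blue) in dKO, with 95% Wilson intervals as lines. C/EBP matches were in 45.0% of lower and 16.7% of higher phosphatase regions, and AP-1 matches in 5.00% and 28.6%, close to the pale bars beside them.

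Kinases whose products the MAP kinase phosphatases oppose were examined as a further list of 28 genes for MAP kinases and their upstream kinases. At 19 of them lay 33 listed regions, of which 25, or 75.8%, were higher in dKO, against 60.3% of all listed regions. Outside chromosome 10, 18 of 26 were higher, against 58.4%. Map2k1 (MEK1) had a region at 6.18 in WT and 7.11 in dKO. Map2k2 (MEK2), on chromosome 10, was higher at its promoter, from 9.10 to 9.77. Mapk14, which encodes p38α, had a lower region, from 6.68 in WT to 5.59 in dKO. Mapk8 (JNK1) had a higher and a lower region, from 3.19 to 5.12 and from 5.54 to 0.44, the latter under the floor in dKO.

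A list of 37 further tyrosine and dual-specificity phosphatase genes had 19 listed regions at 14 genes, all outside chromosome 10, of which 13, or 68.4%, were higher in dKO, against 58.4% of all listed regions outside this chromosome. Dusp22, a small atypical phosphatase, was higher at a start site, from 6.46 in WT to 7.92 in dKO, and Dusp9, an ERK phosphatase, was lower at one, from 6.09 to 4.93. The median difference over the list was 1.51, against 0.95 both for all listed regions and for the 47 phosphatase regions outside chromosome 10.

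No listed region was found at 9 genes, namely Ptprb, Ptprd, Ptprk, Ptpru, Ptprz1, Ptpn3, Ptpn12, Dusp2 and Dusp16. Regions that did not pass the authors' threshold are not analysed here, so an open region of equal accessibility and a closed one cannot be told apart at these genes. Their bodies ranged from 2.22 kb at Dusp2 to 2271 kb at Ptprd. At the edge of the windows, the outermost regions counted were the Dusp5 region and the Ptprc region described above, 23387 and 23399 bp from the gene. The first regions beyond it were 26887 bp upstream of Dusp1, with 5.83 in WT and 2.30 in dKO, and 33437 bp upstream of Ptpn14, with 6.30 and 4.63.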

How the data were processed

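ATAC-seq libraries of WT, dKO and dKO-LAP* cells (2 each) were sequenced by the authors. The depth of each library is not in the table used here. Reads were preprocessed with PiGx, aligned to mm10 with Bowtie 2, called as peaks with MACS2 and compared with DiffBind 2.14.0. Duplicate handling and the Tn5 offset are not given in the sources used here. The authors deposited log2 mean normalised reads per region for WT, dKO and both, pooled over libraries, with their fold change, p-value and FDR, which were not used. The 2 files held 1 distinct table, with no dKO-LAP* column. Levels up to 1.2 lay on steps of whole reads (tolerance 0.011) in 100% of 168 WT and 202 dKO values at the best ratio of read worth between the libraries of a group (1.23 to 1.27 in WT, 1.01 to 1.06 in dKO), against medians of 35.4% and 68.8% over all ratios tried. Read numbers given are estimates from these steps.

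Members and lists were chosen with earlier results of these data known. Every member was accounted for, and regions within 1 kb of a start site and each member's most different region were named. All 35 genes were found in GENCODE M21, and Ptp4a1, annotated there more than once, was left out of a further list. Sequences came from GRCm38.p6, the assembly of mm10. Assignment and motif search were tested on simulated data (Python 3.11.15, pandas 2.3.3, SciPy 1.17.1). No significance test was run. Alternatives were other windows, thresholds, centring and motif widths.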

Additional observations from a re-analysis of the deposited data

How the results depend on the processing

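No paired analysis was possible because only group means are listed, with no value per library, and replicates could not be left out in turn for the same reason. With windows of 10 kb, 50 kb or none, with the nearest coding start site required, with 2-fold differences only, without regions at the floor, without regions up to the lower quartile of the mean level and, chosen after the data were seen, without Ptprg (35 higher, 20 lower), the share of higher regions was 61.3% to 69.2%. Without chromosome 10 the number of higher regions was 27 in place of 42, as all 15 regions left out were higher. The share of higher regions was then 57.4%, below the range just given, against 58.4% of all listed regions outside chromosome 10. Without Ptprg as well, also chosen after the data were seen, 20 were higher and 20 lower, so that no direction was left. Centred on the median of all listed regions (0.98), 36 were higher and 26 lower, or 58.1%, where centring by construction divides all listed regions evenly. C/EBP matches in higher regions were in 33.3% of whole regions and 31.0% of central 400 bp stretches, as longer stretches were searched, and in 55.0% of lower regions with both. Among named genes, the most different region turned negative at Dusp1 (-3.53) and Dusp7 (-3.72) with a 50 kb window, and at Dusp5 (-1.16) with 10 kb, the gene body alone or the nearest coding start site, since regions entered or left the window. With 10 kb or the gene body alone, Dusp6 had 1 region in place of 4 and its largest difference was 0.72 in place of 3.35, and with 50 kb that of Ptprs was -2.88 in place of -1.41. A window of 10 kb dropped 3 genes (Ptpn1, Ptpn11, Ptpn22), the gene body alone 7, and 50 kb added Ptpn12, Ptpn3 and Ptpru. A stricter version of the authors' threshold was not run.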

Other observations

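Genes whose products work with SH2-domain phosphatases also had listed regions. A list of 18 genes was drawn up for inhibitory receptors and adaptors of SH2-domain phosphatases. At 13 of them lay 20 listed regions, 14 of them higher in dKO (70.0%, against 60.3% of all listed regions). Outside chromosome 10, 13 of 19 were higher, against 58.4%. The median difference of 0.98 was equal to that of all listed regions. Fcgr2b, the inhibitory Fc receptor, had a region at 3.19 in WT and 6.18 in dKO, Siglecg one at 3.30 and 6.09, and Sirpa, the receptor for CD47, one at 3.89 and 5.52. Pecam1 was lower, from 7.48 to 6.30. Of the Gab adaptors, which carry SHP-2 to growth factor receptors, Gab1 had 3 lower regions (4.74 to 2.75, 6.23 to 4.06 and 5.47 to 2.17), Gab2 had 2 lower regions (6.83 to 5.98 and 8.57 to 7.83) and Gab3 a higher one (5.82 to 7.35). These genes were singled out after their values were seen.

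Of 14 genes for cytoplasmic tyrosine kinases (the Src, Syk, Tec and Fes families and Csk), 10 had 14 listed regions, of which 8 were higher in dKO (57.1%, against 60.3% of all listed regions). Outside chromosome 10, 8 of 11 were higher, against 58.4%. Lyn, a Src-family kinase of myeloid cells, had 2 higher regions, from 6.28 to 7.30 and from 7.13 to 8.39. Fyn, on chromosome 10, had 3 lower regions, from 8.56 to 7.79, from 4.66 to 0.86, which is under the floor, and from 5.61 to 2.44. Fyn is thus a gene of chromosome 10 whose listed regions were all lower, where all 15 regions of Ptprr and Dusp6 were higher. The other chromosome 10 genes with regions in the further lists, Map2k2, Map3k5 and Lilrb4a, had only higher ones. Of all listed regions of this chromosome, 82% were higher.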
